A study of Mus musculus with 15 samples.

Results

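Lysosomes are the acidic organelles in which a cell digests proteins, lipids and sugars, and autophagy is the route by which the cell's own cytoplasm and organelles are delivered to them. The set described here holds 38 genes of both systems, listed by symbol: cathepsins and other lysosomal proteases, glycosidases and other hydrolases, membrane and lipid transfer proteins, proton pump subunits, the transcription factor gene Tfeb and autophagy genes. Levels are those of a gene's brightest probe set, a group of short oligonucleotide probes for one transcript. All 38 had a probe set, 87 in all, and all 38 were among the 13168 genes tested.

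The series asks how erythropoietin, a hormone of red blood cell formation, alters RNA levels in mouse forebrain after hypoxic ischemia, in which the brain is short of both blood supply and oxygen. RNA of forebrain was measured on 15 arrays in 3 groups of 5. VEH-Sham 1 to 5 received vehicle and then sham surgery, VEH-HI 6 to 10 received vehicle and then hypoxic ischemia, and EPO-HI 11 to 15 received erythropoietin and then hypoxic ischemia. The dose of erythropoietin was 5 U per g, injected intraperitoneally, all injections came 1 h before the procedure, and no group received erythropoietin with sham surgery. The sources used here name no strain, age, sex or time of sampling. Nor do they state that each sample came from its own animal, so p-values measure only the spread between samples, and that spread may be technical.

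In the brain, microglia clear debris after injury and are rich in lysosomes, while neurons depend on lysosomes and autophagy to renew their long-lived contents. Newly made hydrolases are carried from the Golgi to the lysosome, the proton pump (V-ATPase) acidifies its interior, and the pump's low pH activates the cathepsins. TFEB, the product of Tfeb, is a transcription factor that binds a motif with the core CACGTG in the promoters of many lysosomal genes.

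RefSeq promoter windows of assembly GRCm38.p6, from 250 bases before to 50 bases after a gene's start, were found for 33 of the 38 genes, with several for 4 of them (38 windows). CACGTG, which reads the same on both strands, stood in 12 of the 38 windows (31.6%), against 7.15% of all 32851 windows and 9.41% of the 13648 windows of tested genes. The longer TCACGTG, searched on both strands and always overlapping the core, stood in 26.3% of the members' windows against 3.77% of all and 5.53% of those of tested genes. TCACGTGA, which holds both shorter forms, stood in 15.8% against 0.974% and 1.66%. These are matches of letters and no evidence of binding in these samples.

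Of these promoters 6 are shown, as the 250 bases before the start, 5′ to 3′ on the gene's strand, because their genes recur below. Capitals mark CACGTG with the flanking T or A where TCACGTG or its complement is present. Lamp1 has the most matches, Ctsa, Gla and Ctsd are further genes that were higher after hypoxic ischemia, Atp6v1a was lower, and Ctsz was higher with no match in its window.
Lamp1, chr8:13158911-13159160, plus strand: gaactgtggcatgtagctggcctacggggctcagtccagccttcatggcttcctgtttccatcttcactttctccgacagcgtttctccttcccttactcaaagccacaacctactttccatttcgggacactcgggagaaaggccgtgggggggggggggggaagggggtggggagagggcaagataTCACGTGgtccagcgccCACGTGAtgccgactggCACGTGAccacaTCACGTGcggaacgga
Ctsa, chr2:164833523-164833772, plus strand: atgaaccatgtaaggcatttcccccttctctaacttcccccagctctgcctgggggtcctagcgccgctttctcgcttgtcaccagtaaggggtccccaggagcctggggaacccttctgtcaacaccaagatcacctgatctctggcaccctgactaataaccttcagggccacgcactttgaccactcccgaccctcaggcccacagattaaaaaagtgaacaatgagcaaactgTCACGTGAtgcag
Gla, chrX:134601006-134601255, minus strand: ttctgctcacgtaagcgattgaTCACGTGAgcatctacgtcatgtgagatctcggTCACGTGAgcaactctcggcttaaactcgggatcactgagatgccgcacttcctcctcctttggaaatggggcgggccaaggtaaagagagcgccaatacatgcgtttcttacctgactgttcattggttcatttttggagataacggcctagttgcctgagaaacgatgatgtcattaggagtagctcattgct
Ctsd, chr7:142387828-142388077, minus strand: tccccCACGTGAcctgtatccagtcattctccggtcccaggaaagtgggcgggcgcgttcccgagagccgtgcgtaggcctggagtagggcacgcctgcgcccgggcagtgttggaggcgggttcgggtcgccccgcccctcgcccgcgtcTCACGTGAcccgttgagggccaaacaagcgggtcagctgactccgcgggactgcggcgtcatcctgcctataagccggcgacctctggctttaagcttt
Atp6v1a, chr16:44139260-44139509, minus strand: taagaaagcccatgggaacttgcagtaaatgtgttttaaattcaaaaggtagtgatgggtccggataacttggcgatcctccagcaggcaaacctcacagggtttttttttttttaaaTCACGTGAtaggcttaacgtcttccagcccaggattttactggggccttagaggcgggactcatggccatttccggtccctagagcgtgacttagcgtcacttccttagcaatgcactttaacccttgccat
Ctsz, chr2:174439040-174439289, minus strand: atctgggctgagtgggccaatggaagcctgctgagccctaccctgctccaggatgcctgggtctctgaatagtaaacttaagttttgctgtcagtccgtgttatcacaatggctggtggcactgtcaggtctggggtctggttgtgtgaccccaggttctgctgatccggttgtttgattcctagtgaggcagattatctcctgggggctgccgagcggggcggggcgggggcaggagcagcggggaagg

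The Lamp1 sequence has 4 matches, the farthest of which begins at position -61, counted back from the start. The Ctsa sequence has 1 in the stretch shown, at position -12, and the window of its other annotated start has none. In Gla they begin at -227 and -194, in Ctsd at -245 and -98, and in Atp6v1a at -131. By direction of change after hypoxic ischemia, CACGTG stood in 7 of 19 windows of genes that were higher, in 1 of 2 of genes that were lower and in 4 of 17 of genes that did not pass, so matches were found in all 3 classes.

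The arrays did not form a single uniform series, and this touches every comparison with VEH-Sham. The median intensity ranged from 55.3 to 57.9 over VEH-Sham 1 to 4 but from 39.2 to 44.4 over VEH-Sham 5 with both injured groups, and a gap of 0.24 (log2) divided them into set A (4 arrays) and set B (11 arrays). Gapdh control probes, whose 3′ to 5′ signal ratio reflects how intact the RNA is, gave 0.634 to 0.719 for set A against 0.716 to 0.756 for set B. These ranges overlapped, since VEH-Sham 3 (0.7193) lay above EPO-HI 11 (0.7159). The Actb ratios overlapped as well (1.283 to 1.399 and 1.241 to 1.504). VEH-Sham 5 was above VEH-Sham 1 to 4 in 18 of the 38 genes (47.4%, against 28.6% of all genes tested) and below them in 2, Atp6ap1 and Becn1 (5.26%, against 32.1%). Differences from VEH-Sham are therefore given with the difference from VEH-Sham 5 alone, called the value within set B, whose sham side rests on 1 array.

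The effect of hypoxic ischemia itself is read from VEH-HI minus VEH-Sham. The largest rises in mean level were those of the lysosomal protease genes Ctsc (2.60-fold) and Ctsz (2.44-fold). The membrane protein gene Lamp2 (1.93-fold) and the protease gene Ctsb (1.90-fold) came next. At a limma adjusted p under 0.05, 18 of the 38 genes (47.4%) were higher, against 11.9% of all genes tested. The genes Npc1, Atp6v1a, Atp6ap1 and Becn1 were lower (10.5%, near the 11.5% of all genes), and 16 did not pass. The groups did not overlap in 12 of the genes that were higher (31.6%, against 4.59% of all genes) and in 2 of those that were lower (5.26%, against 4.09%). The median difference was 0.25 over the 38 genes and -0.02 over all genes. Within set B the median was 0.14 against 0.003 over all genes, and 0 of the 38 genes passed limma's adjusted threshold, while 10 had an unadjusted p under 0.05. Over all 27022 probe sets 7 passed there and 1756 had an unadjusted p under 0.05.

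With every array scaled to an equal median in place of the authors' scaling, 25 genes were higher and 0 lower, and the median of all genes moved from -0.02 to 0.22. The median of the 38 genes was then 0.50. The 4 falls kept their sign at -0.33 for Npc1, -0.07 for Atp6v1a, -0.09 for Atp6ap1 and -0.07 for Becn1 but did not pass. Equal medians move all genes of an array by the same log2 amount. The place of these 4 relative to all genes was therefore fixed in advance and is no support for the falls.

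VEH-Sham 5 offers a comparison within set B that needs no scaling across sets. It lay below all 10 hypoxic ischemia arrays in 13 of the 38 genes (34.2%, against 9.69% of all genes tested): Ctsa, Ctsb, Ctsc, Ctsd, Ctsz, Tpp1, Lgmn, Gusb, Man2b1, Lipa, Lamp1, Grn and Map1lc3b. It lay above all 10 in Npc1, Psap and Atp6v1a (7.89%, against 8.17%). Of the 18 genes that were higher 17 were also above 0 within set B, where their median was 0.43 in place of 0.59. These genes were chosen on a contrast that already holds these arrays, so agreement is partly built in: of the 1573 genes of the whole table that were higher, 85.6% were above 0 within set B, with a median of 0.19 in place of 0.47. For 4 of the 18 the value within set B was as large as over all arrays, and for 4 it was less than 0.5 times as large.

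**Figure D1:**
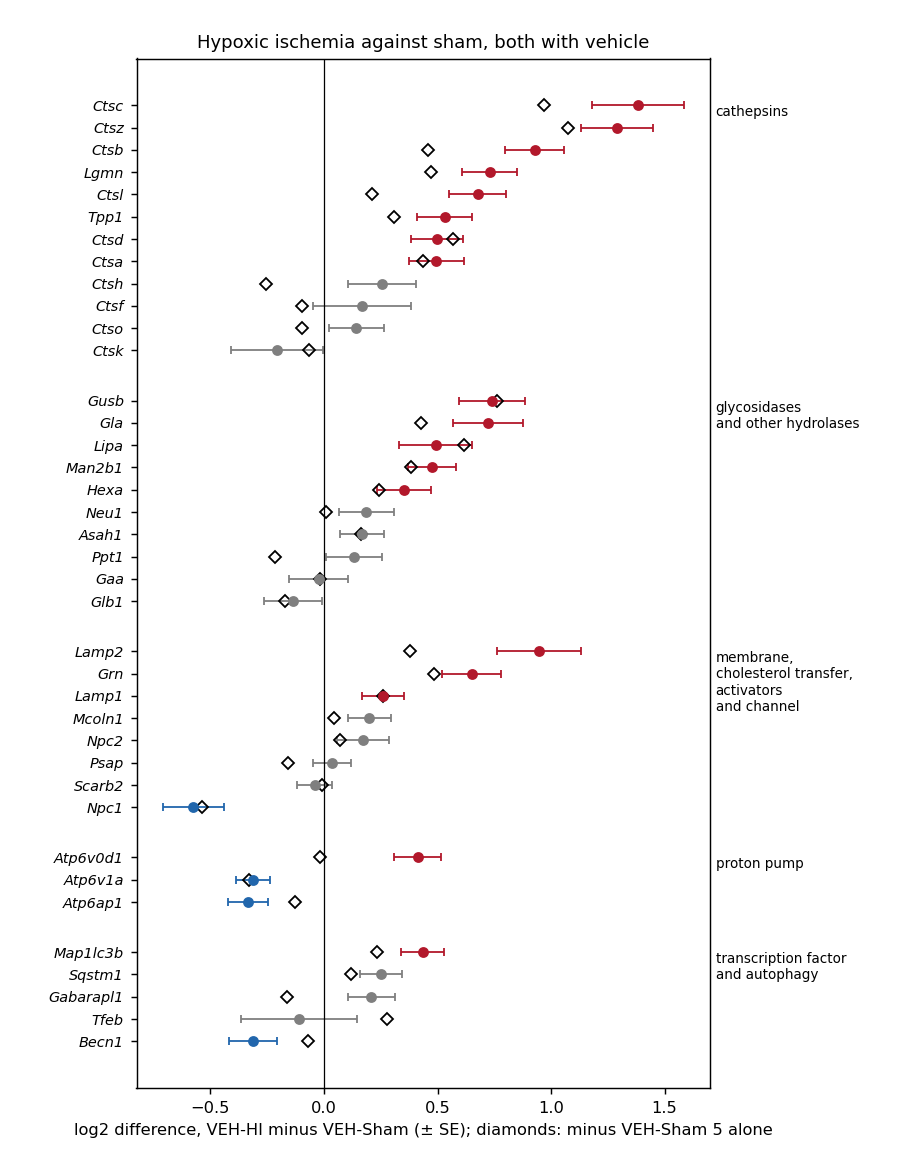
Difference in level between VEH-HI and VEH-Sham for each of the 38 genes, grouped by role, in log2 units with the standard error of limma's fit (n = 5 arrays per group). Red points passed as higher, blue as lower and grey did not pass, and open diamonds are the difference from VEH-Sham 5 alone. Most red points lie right of their diamond, and the diamond of Atp6v0d1 lies at -0.02.

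Of the 12 cathepsins and other proteases 8 were higher, 0 lower and 4 did not pass, with a median difference of 0.52 (0.37 within set B). Ctsz encodes cathepsin Z, a cysteine carboxypeptidase that is abundant in microglia. Its level, in log2(intensity + 16) here and below, was 8.54, 8.57, 8.64, 8.55 and 8.84 in VEH-Sham 1 to 5. In VEH-HI 6 to 10 it was 10.13, 10.10, 9.53, 10.10 and 9.72, and in EPO-HI 11 to 15 it was 10.21, 9.80, 9.06, 9.48 and 9.49. All 10 hypoxic ischemia arrays lay above all 5 sham arrays. VEH-HI exceeded VEH-Sham by 1.29 (SE 0.159, limma adjusted p = 8.17e-05, n = 5 per group), a fold of 2.44, and by 1.08 within set B, and both other probe sets of the gene went the same way.

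Ctsc encodes cathepsin C, the dipeptidyl peptidase that activates granule proteases of immune cells. Its levels were 7.37, 8.03, 7.41, 7.57 and 8.11 in VEH-Sham, 9.56, 9.41, 9.01, 8.93 and 8.49 in VEH-HI and 9.54, 9.03, 8.54, 8.62 and 9.18 in EPO-HI. The sham arrays fell into a lower 3 and a higher pair, VEH-Sham 2 and 5, and none reached the lowest injured array. The difference was 1.38 (SE 0.203, limma adjusted p = 0.000414), and 0.97 within set B.

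Ctsb encodes cathepsin B, a cysteine protease of most cells that is also released when lysosomes leak. It stood at 10.15, 10.62, 10.27, 10.20 and 10.89 in VEH-Sham, at 11.56, 11.40, 11.22, 11.29 and 11.28 in VEH-HI and at 11.52, 11.13, 10.98, 11.12 and 11.23 in EPO-HI. VEH-Sham 5 was the highest of the sham arrays and still below every injured array. The difference of 0.93 (SE 0.128, limma adjusted p = 0.000231) was 0.46 within set B, and 3 of the gene's 4 further probe sets were also above 0.

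Lgmn encodes legumain, the asparagine-specific protease that trims cathepsins to their mature form. It was at 8.54, 8.78, 8.63, 8.36 and 8.90 in VEH-Sham, 9.55, 9.61, 9.30, 9.02 and 9.38 in VEH-HI and 9.46, 9.22, 9.11, 9.07 and 9.05 in EPO-HI. Sham and injured arrays again did not overlap, with a difference of 0.73 (SE 0.12, limma adjusted p = 0.000875) and 0.47 within set B.

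Ctsl encodes cathepsin L, a broad-acting cysteine protease. Levels were 10.38, 10.70, 10.38, 10.25 and 11.01 in VEH-Sham, 11.46, 11.21, 11.26, 11.30 and 10.88 in VEH-HI and 11.31, 11.26, 11.07, 11.24 and 11.32 in EPO-HI. Here the groups overlapped, because VEH-Sham 5 was higher than VEH-HI 10. The difference of 0.68 (SE 0.125, limma adjusted p = 0.00165) was 0.21 within set B, so the gap to VEH-Sham 1 to 4 carried most of it.

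The other proteases that were higher were Tpp1, a tripeptidyl peptidase whose loss causes a childhood neuronal lipofuscinosis (0.53, and 0.31 within set B), Ctsd, the main aspartic protease of lysosomes (0.50 and 0.57), and Ctsa, a carboxypeptidase that also protects neuraminidase and beta-galactosidase (0.49 and 0.44). The other probe set of Ctsa went the opposite way at -0.74, and that of Tpp1 stood at -0.01. Ctsh was at 0.26, Ctsf at 0.17, Ctso at 0.14 and Ctsk at -0.21, and none of these 4 passed. Within set B Ctsh, Ctsf and Ctso were below 0.

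**Figure D2:**
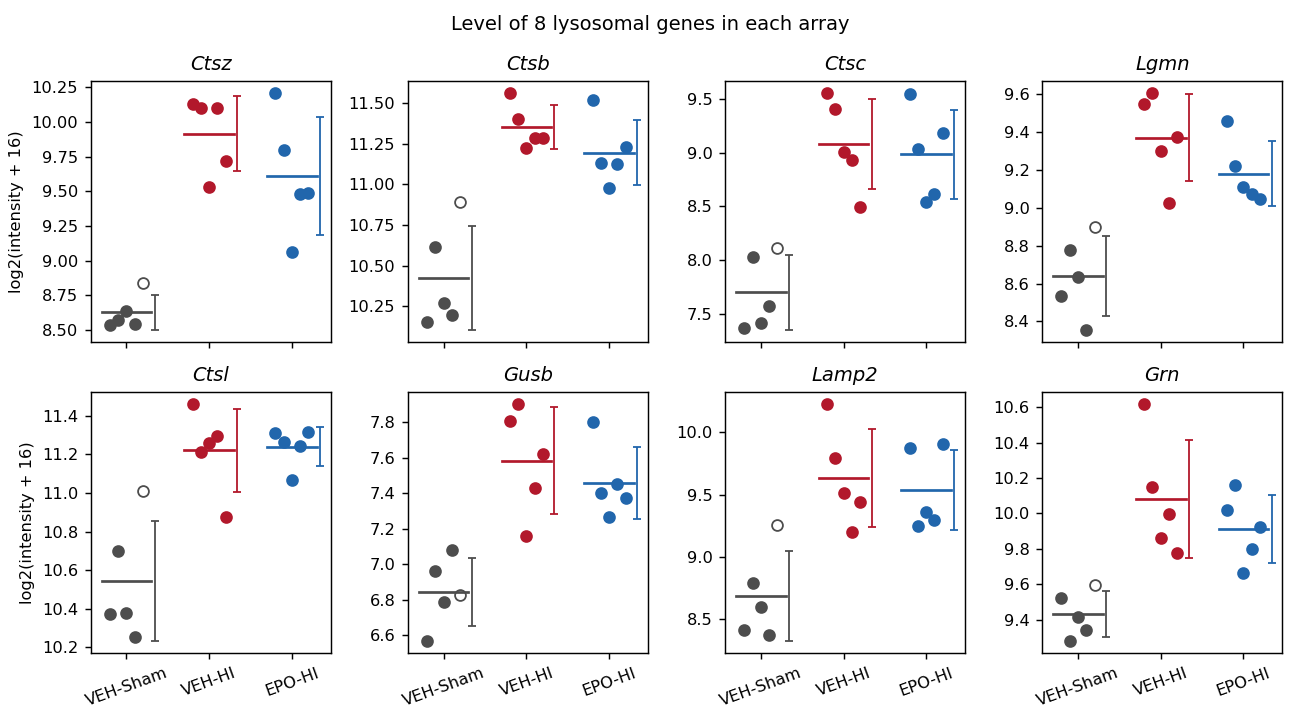
Level of 8 lysosomal genes in each of the 15 arrays, as log2(intensity + 16), with the group mean as a line and its SD as a bar (n = 5); each panel has its own axis, which does not start at 0. The hollow point is VEH-Sham 5, which lies above VEH-Sham 1 to 4 in 7 of the 8 panels and below all 10 injured arrays in 6, the exceptions being Ctsl and Lamp2.

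Of the 10 glycosidases and other hydrolases 5 were higher, 0 lower and 5 did not pass (median 0.27, and 0.20 within set B). Gusb encodes beta-glucuronidase, which breaks down glycosaminoglycans. Its levels were 6.57, 6.96, 6.79, 7.08 and 6.82 in VEH-Sham, 7.81, 7.91, 7.16, 7.43 and 7.62 in VEH-HI and 7.80, 7.40, 7.27, 7.46 and 7.37 in EPO-HI. VEH-Sham 5 lay in the middle of its group, and all injured arrays lay above all sham arrays. The difference was 0.74 (SE 0.144, limma adjusted p = 0.00228) and was as large, 0.76, within set B. The gene's other tested probe set stood at 0.22 and did not pass.

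Gla, the alpha-galactosidase gene mutated in Fabry disease, was higher by 0.72 (SE 0.153, 0.43 within set B). Man2b1, a lysosomal alpha-mannosidase, was at 0.47 (0.38 within set B), and Hexa, the hexosaminidase subunit lost in Tay-Sachs disease, at 0.35 (0.24). Lipa, the acid lipase that frees cholesterol from esters, was at 0.49 (0.62 within set B), but its 2 other probe sets stood at -0.44 and -0.29. The call of Hexa was lost when VEH-HI 6, VEH-HI 7 or any of VEH-Sham 1 to 4 was left out (highest limma adjusted p = 0.117), and that of Lipa without VEH-Sham 1 or 4 or VEH-HI 6, 9 or 10 (highest limma adjusted p = 0.0919). Neu1 (0.19), Asah1 (0.17), Ppt1 (0.13), Gaa (-0.02) and Glb1 (-0.14), which encode a sialidase, acid ceramidase, a thioesterase, the glycogen-degrading alpha-glucosidase and beta-galactosidase, did not pass. Within set B they stood at 0.01, 0.16, -0.21, -0.02 and -0.17, so Ppt1 changed sign. Other tested probe sets were at -0.17 for Neu1, 0.37 for Gaa and from -0.505 to 0.06 for Ppt1.

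Of the 8 genes of the membrane, cholesterol transfer, enzyme activators and channel 3 were higher, 1 was lower and 4 did not pass (median 0.19, and 0.06 within set B). Lamp2 encodes a heavily glycosylated protein of the lysosomal membrane that is needed for autophagosome fusion and chaperone-mediated autophagy. It was at 8.42, 8.79, 8.60, 8.38 and 9.26 in VEH-Sham, 10.23, 9.79, 9.52, 9.20 and 9.44 in VEH-HI and 9.87, 9.25, 9.36, 9.30 and 9.90 in EPO-HI. VEH-Sham 5 was above VEH-HI 9 and EPO-HI 12, the lowest of their groups, so the groups overlapped. The difference of 0.95 (SE 0.185, limma adjusted p = 0.00232) fell to 0.38 within set B, and all 3 other probe sets went the same way.

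Grn encodes progranulin, a secreted and lysosomal protein of microglia and neurons whose loss causes frontotemporal dementia. Levels were 9.52, 9.28, 9.42, 9.34 and 9.60 in VEH-Sham, 10.62, 10.15, 9.86, 10.00 and 9.78 in VEH-HI and 10.02, 10.16, 9.66, 9.80 and 9.92 in EPO-HI. VEH-HI 6 stood highest and no sham array reached the injured ones. The difference was 0.65 (SE 0.13, limma adjusted p = 0.0027) and 0.48 within set B, and both other probe sets went the same way.

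Lamp1, the companion membrane protein of Lamp2, was higher by 0.26 over all arrays (SE 0.091, limma adjusted p = 0.0445) and stood at the same 0.26 within set B without passing there (SE 0.143). The call was lost in 10 of 15 fits that left out 1 array (VEH-Sham 2, 3 or 4, VEH-HI 6, 7 or 9, or EPO-HI 11, 12, 14 or 15), with a highest adjusted p of 0.125. Npc1 and Npc2 encode the pair of proteins that hand cholesterol out of the lysosome. Npc1 was at 6.95, 6.86, 6.89, 7.00 and 6.88 in VEH-Sham and 6.84, 6.14, 6.41, 6.17 and 6.14 in VEH-HI. All 5 injured arrays were below all sham arrays, although VEH-HI 6 lay just under VEH-Sham 2. Its difference was -0.58 (SE 0.136, limma adjusted p = 0.00665) and -0.54 within set B. Npc2 was at 0.17 and did not pass, nor did the channel gene Mcoln1 (0.20), the saposin precursor gene Psap (0.04) and Scarb2 (-0.04), the receptor that carries beta-glucocerebrosidase to lysosomes. Within set B these genes stood at 0.07, 0.04, -0.16 and -0.008. The 2 other tested probe sets of Npc2 were at -0.32 and 0.33, the latter passing over all arrays. Those of Mcoln1, Psap and Scarb2 were at -0.23, -0.02 and 0.42, each opposite in sign to the brightest.

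The 3 proton pump genes all passed, in different directions. Atp6v1a, the catalytic subunit of the cytosolic part of the pump, was lower by 0.31 (-0.33 within set B), at 10.80, 10.80, 10.85, 10.76 and 10.83 in VEH-Sham and 10.44, 10.36, 10.45, 10.65 and 10.59 in VEH-HI. Atp6ap1, an accessory subunit, was at -0.34 (-0.13 within set B). Atp6v0d1, a subunit of the membrane part, was at 0.41 but -0.02 within set B, since VEH-Sham 5 at 11.02 was level with the injured arrays and the other sham arrays stood at 10.37 to 10.65.

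Of the transcription factor and autophagy genes 1 was higher, 1 lower and 3 did not pass. Map1lc3b, whose product LC3B coats autophagosomes, was higher by 0.44 over all arrays (SE 0.094, limma adjusted p = 0.0039), with both other probe sets in the same direction, and stood at 0.23 within set B without passing there. Becn1, part of the lipid kinase complex that starts autophagosomes, was at -0.31 (-0.07 within set B), and the call was lost when VEH-HI 6, 9 or 10 or any of VEH-Sham 1 to 4 was left out, with a highest adjusted p of 0.103. Sqstm1, the cargo receptor p62, was at 0.25 (limma adjusted p = 0.058) and Gabarapl1 at 0.21, neither passing. Within set B Sqstm1 was at 0.12 and Gabarapl1 turned to -0.16, and the other probe set of Gabarapl1 stood at -0.05 over all arrays.

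Tfeb had the largest standard error of the 38 genes. It stood at 6.22, 7.37, 6.32, 5.63 and 5.90 in VEH-Sham, 6.39, 6.25, 6.15, 5.67 and 6.43 in VEH-HI and 5.65, 6.08, 5.63, 5.53 and 6.37 in EPO-HI. VEH-Sham 2 was far above the rest, and the 3 groups overlapped. VEH-HI minus VEH-Sham was -0.11 with a 95% interval of -0.64 to 0.42, which spans rises and falls, and 0.28 within set B. Over all arrays, neither a rise nor a fall within that interval could be told from no change.

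**Figure D3:**
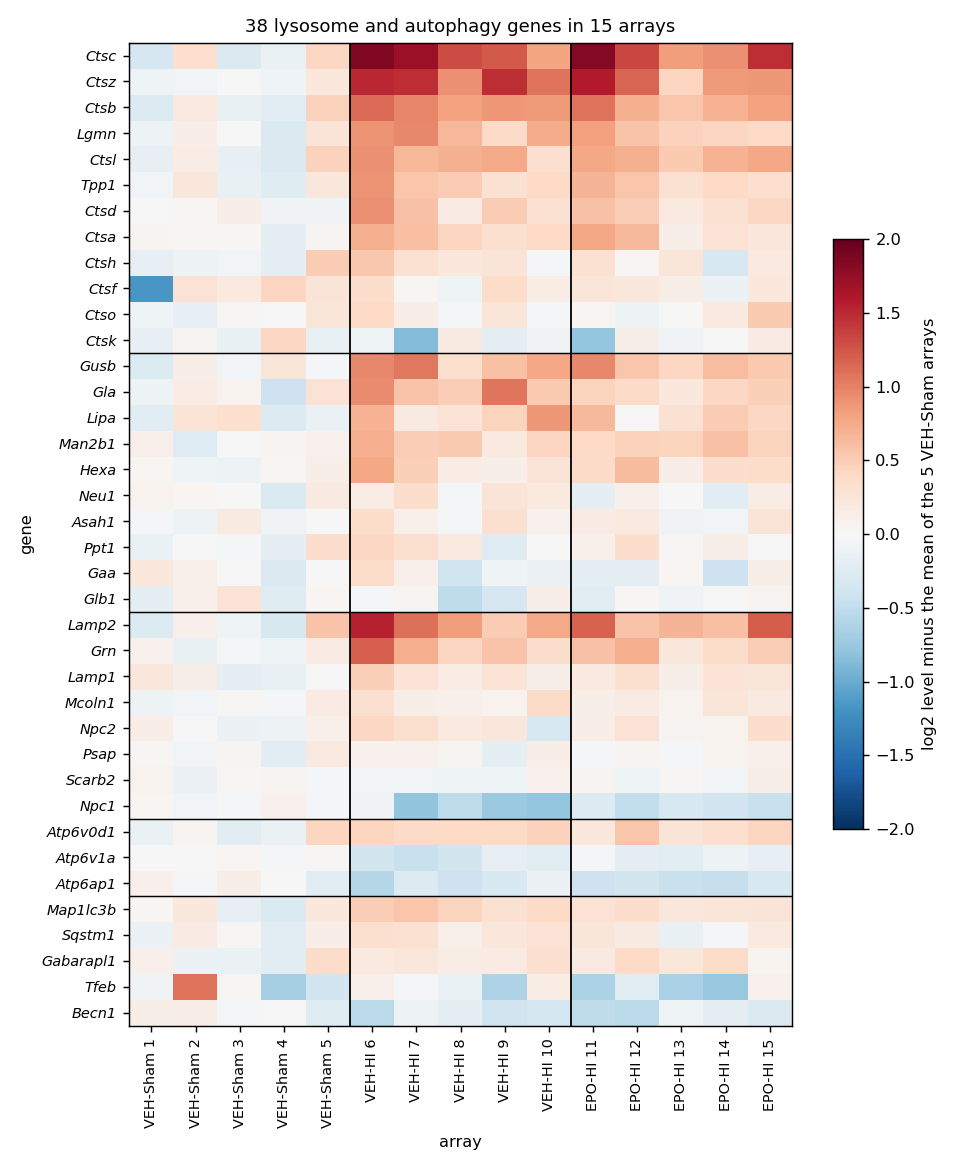
Level of each of the 38 genes (rows, grouped by role) in each of the 15 arrays (columns) minus the mean of the 5 VEH-Sham arrays, in log2 units; red is above and blue below that mean. The upper rows of the proteases are red in all 10 injured arrays, with Ctsc in VEH-HI 6 and EPO-HI 11 among the darkest, and the VEH-Sham 5 column is paler red in rows such as Ctsb, Ctsl, Lamp2 and Atp6v0d1.

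Some markers of microglia and macrophages rose together with these genes. Of 14 tested microglia and macrophage markers 7 were higher, 2 lower and 5 did not pass, with a median of 0.46 (0.42 within set B). Mpeg1, a pore-forming protein gene of macrophages, was at 2.14 (1.11 within set B) and C1qc, a complement gene, at 1.33 (1.17), while P2ry12, a receptor of resting microglia, was at -0.72 (-0.55). The summed intensity of the list was 2597 to 3123 in VEH-Sham 1 to 4, 2982 in VEH-Sham 5, 3552 to 5253 in VEH-HI and 2908 to 4169 in EPO-HI. Itgam and Trem2, which are also on the list, were too dim to be tested. In bulk tissue, more cells of a type and more RNA per cell cannot be told apart, and the part of these cells in the lysosomal rises was not tested.

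Other marker lists were mixed, and their counts are to be read against 11.9% higher and 11.5% lower over all genes tested. Higher and lower genes numbered 4 and 0 of 10 for astrocytes, 2 and 0 of 7 for neutrophils, 4 and 0 of 8 for meninges and fibroblasts, 2 and 1 of 7 for endothelium, 1 and 0 of 5 for choroid plexus, 0 and 3 of 13 for neurons, 0 and 1 of 6 for myelin, 0 and 0 of 6 for oligodendrocyte precursors, 0 and 1 of 8 for forebrain and 0 and 0 of 5 for hindbrain. Median differences were 0.45 for meninges and fibroblasts (0.19 within set B) and 0.34 for astrocytes (0.09 within set B), beside the 0.46 of microglia and macrophages. Both neutrophil genes that passed, S100a9 (2.45) and Csf3r (1.11), had sham means under the filter on dim probe sets and were tested only because they were bright in injured arrays, so their count is no support. Pecam1, 1 of the 2 endothelial genes that were higher, also had a sham mean under that filter (5.10 against a cut of 5.46). It was at 1.40 over all arrays but at 0.015 within set B, so it is no support either. Summed neutrophil intensity was 246 to 347 in VEH-Sham 1 to 4, 204 in VEH-Sham 5, 249 to 2493 in VEH-HI and 233 to 1027 in EPO-HI. Summed astrocyte intensity was 11324 to 14907, 14143, 14549 to 17982 and 14974 to 16237 in the same order, and summed meningeal and fibroblast intensity 1655 to 1953, 2368, 2323 to 3406 and 1981 to 2369. The part of these cells in the lysosomal rises was not tested. The 8 tested forebrain markers had a summed intensity of 2533 to 4740 over the 15 arrays, and the 5 tested hindbrain and cerebellum markers one of 1136 to 1707. A sum does not show that each marker of a list was detected.

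Beyond the 38 genes, the wider pathway was read from lists of other members. Of 155 tested genes on 6 further lists of lysosomal and autophagy genes 26 were higher (16.8%, against 11.9% of all genes tested) and 10 lower (6.45%, against 11.5%), with a median of 0.04 (0.01 within set B). Of the 26, 4 had sham means under the filter on dim probe sets and were tested only because they were brighter in injured arrays. These 4 are no support. Among other hydrolases and inhibitors 6 of 29 were higher (20.7%) and 0 lower, led by the cathepsin inhibitor gene Cstb (0.65, and 0.63 within set B) and the thiol reductase gene Ifi30 (0.61 and 0.60). The secreted inhibitor gene Cst3 was at 0.55 but 0.07 within set B.

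Among other membrane and transport genes 8 of 32 were higher (25.0%) and 5 lower (15.6%). Cd68, a membrane glycoprotein gene of macrophage lysosomes, was at 1.08 (1.39 within set B), and the peptide transporter gene Slc15a3 at 1.86 (2.10), although 3 of the 8, Slc15a3 among them, passed the filter on dim probe sets only through the injured arrays, while the peptide transporter gene Abcb9 was at -0.68 (-0.38). Of 15 other proton pump subunits 2 were higher (13.3%), Atp6v0e (0.58 and 0.42 within set B) and Atp6v0b (0.48 and 0.17), and 2 lower, Atp6v1c1 (-0.33 and -0.31) and Tcirg1 (-0.61 and -0.05).

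Of 14 genes of mannose 6-phosphate tagging and sorting, the system that addresses hydrolases to lysosomes, 2 were higher (14.3%, near the 11.9% of all genes) and 0 lower, Nagpa (1.02, and 1.20 within set B) and Gnptg (0.37 and 0.12). Nagpa had a sham mean under the filter on dim probe sets and was tested only because it was brighter in injured arrays. Of 41 other autophagy genes 4 were higher (9.76%, below the 11.9% of all genes) and 1 lower, among them Gabarap (0.48 and 0.24 within set B), Atg101 (0.65 and 0.38), Atg3 (0.41 and 0.36) and Atg4c (-0.66 and -0.30). Of 24 regulators at the lysosome 4 were higher (16.7%) and 2 lower (8.33%). Lamtor4, of the complex that tethers mTORC1, was at 0.43 (0.07 within set B) and Lamtor5, of the same complex, at -0.36 (0.21 within set B).

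The effect of erythropoietin given ahead of the injury is read from EPO-HI minus VEH-HI, whose 10 arrays all lie in set B. None of the 38 genes passed in limma: 0 were higher (0.0% of all genes tested) and 0 lower (0.0%), with the same adjusted p of 0.9997 for each, and 2 of the 38 had an unadjusted p under 0.05. Over all 27022 probe sets 0 passed and 1066 had an unadjusted p under 0.05. The groups did not overlap in 0 genes in the higher direction (0.357% of all genes) and in 1, Gla, in the lower direction (2.63%, against 0.372%).

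The intervals bound what was missed. The 95% intervals of the difference ran from -0.86 at the lowest bound to 0.51 at the highest, all 38 lay within 1 log2 unit of 0, and 33 lay within 0.5. Differences themselves ran from -0.34 for Gla to 0.20 for Npc1. They were below 0 for 28 genes and above 0 for 10 (median -0.07), whereas 48.1% of all genes were above 0. Without VEH-HI 6 the 38 genes divided 19 to 19, with a median of -0.003. Without EPO-HI 13 they divided 13 above and 25 below (median -0.03), and without EPO-HI 14 the median was -0.04, so the size of the downward balance depends on single arrays.

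**Figure D4:**
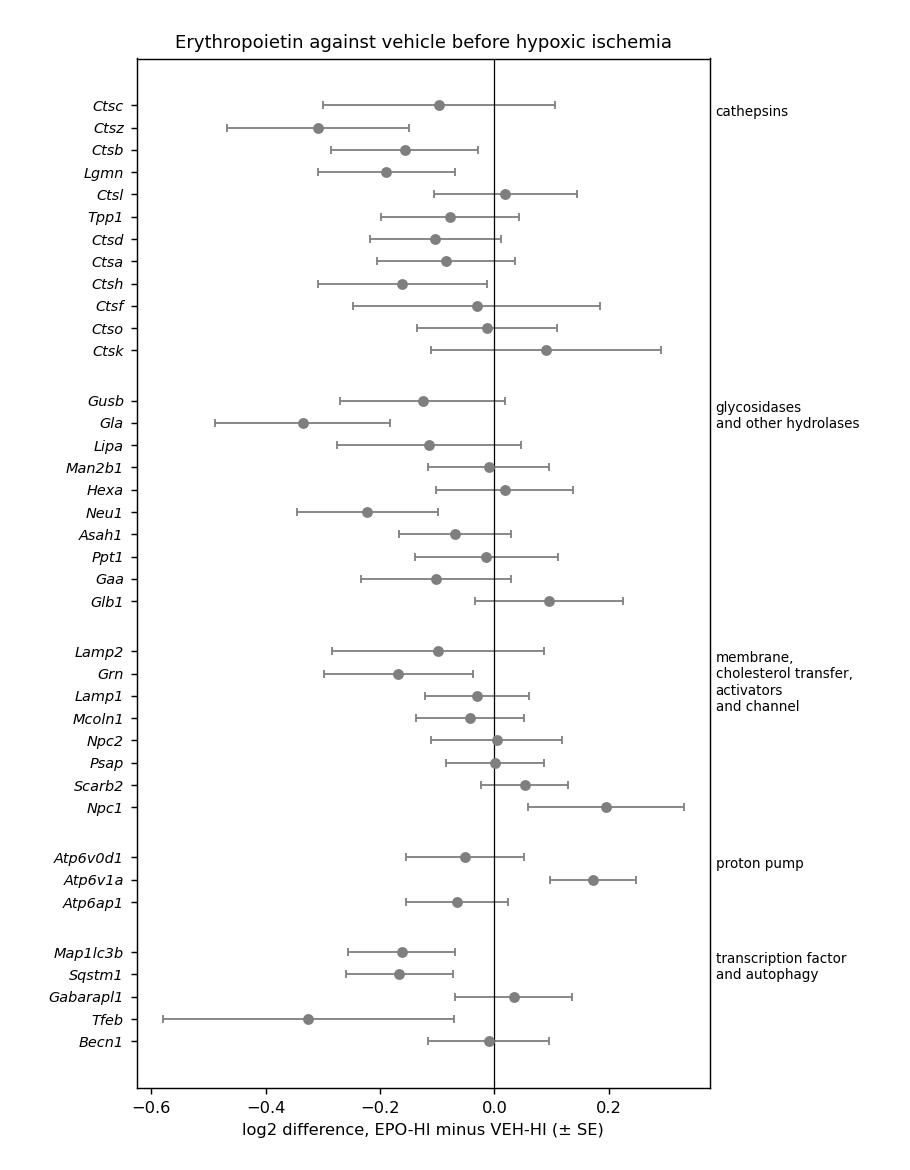
Difference in level between EPO-HI and VEH-HI for each of the 38 genes, grouped by role, in log2 units with the standard error of limma's fit (n = 5 arrays per group). All points are grey because none passed. Most points lie left of 0, and Gla, Tfeb and Ctsz are the lowest while Npc1 and Atp6v1a are the highest.

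The 4 genes with the smallest p-values did not pass. Atp6v1a stood at 10.44, 10.36, 10.45, 10.65 and 10.59 in VEH-HI and at 10.77, 10.63, 10.59, 10.71 and 10.65 in EPO-HI, between VEH-HI and the sham level. EPO-HI 11 was the only array of either group as high as the lowest sham array, and VEH-HI and EPO-HI overlapped. The difference was 0.17 (SE 0.075, 95% interval 0.02 to 0.33, limma adjusted p = 0.9997), and its other probe set was at 0.14.

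Gla was at 6.03, 6.28, 6.19, 5.71 and 6.42 in VEH-Sham, 7.07, 6.69, 6.61, 7.20 and 6.65 in VEH-HI and 6.57, 6.50, 6.34, 6.54 and 6.60 in EPO-HI. Every EPO-HI array was below every VEH-HI array, although EPO-HI 15 lay just under VEH-HI 8. The difference was -0.34 (SE 0.153, 95% interval -0.65 to -0.02, limma adjusted p = 0.9997). Ctsz, with the levels given above, was at -0.31 (SE 0.159, 95% interval -0.64 to 0.02), and EPO-HI 11 was the highest and EPO-HI 13 the lowest of all 10 injured arrays. Neu1 stood at 6.94, 7.14, 6.77, 7.05 and 7.00 in VEH-HI and 6.60, 6.89, 6.78, 6.58 and 6.93 in EPO-HI, which overlapped, with a difference of -0.22 (SE 0.123). Tfeb was at -0.33 (SE 0.255, 95% interval -0.86 to 0.21).

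By role, the median difference between EPO-HI and VEH-HI was -0.09 for the proteases, -0.09 for the hydrolases, -0.01 for the membrane group, -0.05 for the proton pump and -0.16 for the transcription factor and autophagy genes. None of the 155 further pathway genes passed either. Cd68 was at -0.42 (SE 0.160, unadjusted p = 0.017) and Tax1bp1, an autophagy receptor gene, at 0.31 (SE 0.117, unadjusted p = 0.0141). Microglia and macrophage markers had a median of -0.12 with 0 of 14 passing in either direction.

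Single arrays differed within both injured groups. VEH-HI 6 was the highest of the 10 injured arrays in 17 of the 38 genes and in 9 of the 14 microglia and macrophage markers, against 2100 of 13168 genes. EPO-HI 13 was the lowest in 9 of the 38 genes and in 8 of the 14 markers, against 1396 of 13168 genes. VEH-HI 9 was also lowest in 9 of the 38, but in 0 of the 14 markers, against 1805 of 13168 genes. The part of the markers in this order was not tested.

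EPO-HI minus VEH-Sham uses the arrays of both comparisons above and is no independent test. In it 15 of the 38 genes were higher (39.5%, against 8.86% of all genes tested) and 2 lower (5.26%, against 9.46%), and none passed within set B in limma, where 4 of the 38 had an unadjusted p under 0.05. Without VEH-Sham 4 the higher calls fell to 9 and without EPO-HI 12 to 10. With equal array medians 25 were higher and 0 lower.

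Side by side, Ctsc was at 1.28 in EPO-HI minus VEH-Sham and at 1.38 in VEH-HI minus VEH-Sham, Ctsz at 0.98 and 1.29, Ctsb at 0.77 and 0.93, Lamp2 at 0.85 and 0.95, and Ctsl at 0.70 and 0.68. Within set B the EPO-HI values were smaller, at 0.87 for Ctsc, 0.77 for Ctsz, 0.30 for Ctsb, 0.28 for Lamp2 and 0.23 for Ctsl. Gla (0.39 and 0.72), Lipa (0.38 and 0.49), Lamp1 (0.23 and 0.26), Npc1 (-0.38 and -0.58) and Atp6v1a (-0.14 and -0.31) passed in VEH-HI but not in EPO-HI against sham. Their EPO-HI values within set B were 0.095, 0.50, 0.23, -0.34 and -0.16 in that order. The test of the difference between both is EPO-HI minus VEH-HI, in which none of these 5 passed.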

How the data were processed

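Forebrain RNA of 15 samples was hybridised to Affymetrix mouse whole-genome arrays. The authors deposited a linear intensity for each probe set on each array, scaled so that each array's mean without the outer 2% at each end is 150.0, as the values show. The sources used here name no software for this step. All 15 value columns matched a sample by name. Gene names came from the platform's annotation table, updated by gene number against RefSeq GRCm38.p6, and probe sets with 1 symbol were used.

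Intensities were converted to log2(intensity + 16), so differences understate those of dim genes. Of 45037 probe sets without controls, the brightest 60% (27022) entered 1 limma 3.58.1 fit of 3 group means (lmFit, eBayes with trend, R 4.3.3), with two-sided tests and Benjamini-Hochberg adjustment over all of them at 0.05. Each gene is shown by its brightest probe set. Of the 35 other tested probe sets of the 38 genes, 19 went the same way in VEH-HI minus VEH-Sham. The fit was tested on simulated data with normal noise and no shift between sets A and B, so that test does not bear on the array sets. The arrays' number limits the precision, and no sample was dropped from the main fit. Promoter motifs were counted with Python 3.11.15, and figures were drawn with matplotlib 3.10.9.

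The 38 genes, the further pathway and marker lists and the tests were chosen with earlier results of these data known. Values in every array are given for up to 8 genes with the smallest p among those that passed, for the 4 with the smallest p where none passed, and for Tfeb; Npc1 was added after its values were seen. Of each further list up to 4 genes that passed could be named after hypoxic ischemia and up to 2 after erythropoietin. Alternatives were other scalings, pseudocounts, filters and variance models, the array set as a block or only set B, other probe sets, fits of 2 groups, and leaving out each array.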

Additional observations from a re-analysis of the deposited data

Results flagged for a closer look

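In 8 of the 114 groups of 5 arrays examined (38 genes in 3 groups), 1 array stood far from the other 4, with a gap to its nearest neighbour above 0.71 of the group's range. Chance gives about 1 in 20 such groups. In VEH-Sham, Ctsa was low in VEH-Sham 4 at 7.75, where the nearest other array was at 7.97. Ctsf was low in VEH-Sham 1 at 5.75, against 7.11 in the nearest array. Ctsh was high in VEH-Sham 5 at 7.75, against 7.18. Man2b1 was low in VEH-Sham 2 at 7.32, against 7.59.

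In the injured groups, Psap was low in VEH-HI 9 at 11.21, against 11.44, and Scarb2 was high in VEH-HI 10 at 10.16, against 10.02. Ctsk was low in EPO-HI 11 at 5.65, against 6.36, and Ctsl was low in EPO-HI 13 at 11.07, against 11.24. Of these genes Ctsa, Ctsl and Man2b1 were called higher in VEH-HI minus VEH-Sham, and none of the 3 lost that call when any single array was left out. In EPO-HI minus VEH-Sham the call of Ctsa was lost without VEH-Sham 4, EPO-HI 11 or EPO-HI 12 (highest limma adjusted p = 0.0757).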

How the results depend on the processing

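The choice that mattered most was the array set. With it as a block, or within set B alone, 0 members were higher and 0 lower in both comparisons with VEH-Sham. Atp6v0d1 then turned to -0.018 in VEH-HI and -0.07 in EPO-HI. Equal array medians gave 25 higher and 0 lower in both comparisons. With the mean of all probe sets, Ctsa turned to -0.124 and Lipa to -0.079 in VEH-HI, and Ctsa to -0.09 in EPO-HI.

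Under the other settings (quantile normalization, log2 offsets of 1 and 64, no filter, the brightest 40%, no trend, 2 groups, mean of probe sets) 15 to 18 members were higher and 3 to 4 lower in VEH-HI, and 12 to 15 and 2 to 3 in EPO-HI. The brightest 40% held 36 of the 38 members. Leaving out each array in turn gave 15 to 21 higher and 3 to 4 lower in VEH-HI, and 9 to 17 higher and 1 to 3 lower in EPO-HI. The lower count in EPO-HI was 1 without any one of VEH-Sham 1, 2, 3 and 4 and EPO-HI 11, 12 and 15. Over all probe sets the VEH-HI calls, 6174 in all, numbered 3824 without VEH-Sham 4, 3890 without VEH-Sham 3, 4081 without VEH-Sham 1 and 9609 without VEH-Sham 5. EPO-HI minus VEH-HI gave 0 members under every setting run, and 4 probe sets without VEH-HI 8. The cause of these changes was not tested.

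No paired analysis was possible because the replicate numbers run from 1 to 15 through the series and no groups share one. Set B holds 1 sham array, so its error cannot be measured within that set apart from the other groups' spread.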
